A study of Mus musculus with 18 samples.

Results

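The response of mock cells to 0.3 µM MG132, the lower of the study's 2 doses, was measured as the difference between 3 treated and 3 vehicle libraries. These 6 libraries were chosen by their line and dose and make up 6 of the 18 RNA-seq libraries of the study. The cells are immortalised mouse embryonic fibroblasts (MEFs), and all groups share the loss of MafF, MafG and MafK (MafF-/-::MafG-/-::MafK-/-). Mock cells carry no further factor named in the labels. The second line, used here only for contrast, expresses T-N1G (T-NG1 where the labels give the genotype), a construct in which the transcription factor Nrf1 is tethered to MafG. Both lines were grown in DMEM with fetal bovine serum and received vehicle, 0.3 µM or 1.0 µM MG132 over 12 h, which makes 6 groups of 3 libraries. The sources used here do not give the promoter that drives T-N1G, whether a line is 1 clone, or whether replicate libraries stand for separate cultures. The p-values therefore rest on the spread of these 18 libraries alone, and that spread may be technical.

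MG132 is a peptide aldehyde that blocks the proteasome, the barrel-shaped protease that degrades proteins tagged with ubiquitin. Cells short of proteasome activity are known to raise several sets of genes. Heat shock factor 1 (HSF1) drives chaperone genes when unfolded proteins accumulate, and the kinases of the integrated stress response favour translation of ATF4 and, through it, of genes for amino acid supply. Nrf1 (gene Nfe2l1), released from the endoplasmic reticulum, pairs with a small Maf protein and raises the genes of the proteasome's own subunits, the so-called bounce-back response. Mock cells have no small Maf partner for Nrf1 or for its relative Nrf2, the main activator of antioxidant genes.

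The 6 libraries held 19978399 to 20940594 fragments each, and the 18 libraries of the study 18164380 to 21293709. The table lists 24318 genes, of which 13258 passed a filter on low counts and were tested. Levels below are CPM, fragments relative to the library's total after TMM scaling between libraries, given for libraries 1, 2 and 3 of a group in that order. Fold changes are from edgeR's quasi-likelihood fit of all 18 libraries, and a gene was called when its Benjamini-Hochberg adjusted p was under 0.05. Reads were not collapsed to molecules, so counting intervals cover counting error only. The median SD of log2 CPM among better expressed genes was 0.0543 under vehicle and 0.057 at 0.3 µM, against 0.156 at 1.0 µM. The top 10 genes by count took 4.70% to 4.86% of fragments under vehicle and 5.83% to 5.92% at 0.3 µM. Positions are the mouse build mm9 loci of the deposited tables, which can span more than 1 gene.

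The small Maf loci, the targeted genes, still gave reads in these libraries. Maff stood at 3.45, 3.61 and 3.10 CPM under vehicle and 6.35, 5.14 and 5.51 CPM at 0.3 µM. Mafk stood at 1.89, 1.25 and 1.19 CPM under vehicle and 2.93, 2.84 and 2.54 CPM at 0.3 µM. Both were called higher, by 1.67-fold and 1.92-fold, with no overlap between the groups. Mafg gave 0.276, 0.417 and 0.365 CPM under vehicle and 0.546, 0.489 and 0.634 CPM at 0.3 µM, all under 1 CPM and not called (adjusted p = 0.239). The sources used here do not say which part of each gene is deleted, so reads from parts that remain cannot check the genotype. Summed levels of 18 fibroblast markers were 12800 to 13900 CPM under vehicle and 12900 to 13600 CPM at 0.3 µM, with only Fap and Lum under 1 CPM in all 6 libraries. Of 15 leukocyte markers 13 were under 1 CPM, among them Ptprc, as were 8 of 10 endothelial markers including Pecam1 and Cdh5, 9 of 14 epithelial markers including Epcam, and 11 of 17 markers of muscle, fat and nerve.

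Of the 13258 genes tested, 3310 (25.0%) were called higher and 3730 (28.1%) lower at 0.3 µM. These shares are the yardstick for each list count of this comparison below. The 3 treated libraries all lay above the 3 vehicle libraries for 35.2% of genes and all below them for 37.7%. Most changes were small. The median fold among genes called higher was 1.46, the median log2 change among those called lower was -0.63, and 20.2% of all calls reached 2-fold. The largest changes went mostly upward. Calls of 2-fold or more numbered 611 higher (4.61% of genes tested) and 813 lower (6.13%), while those of 8-fold or more numbered 55 higher and 12 lower. The median over all tested genes was -0.02 on the log2 scale, with quartiles of -0.42 and 0.35. In bulk RNA a change in the share of some cells and a change in RNA per cell cannot be told apart, and this holds for every result that follows.

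**Figure D1:**
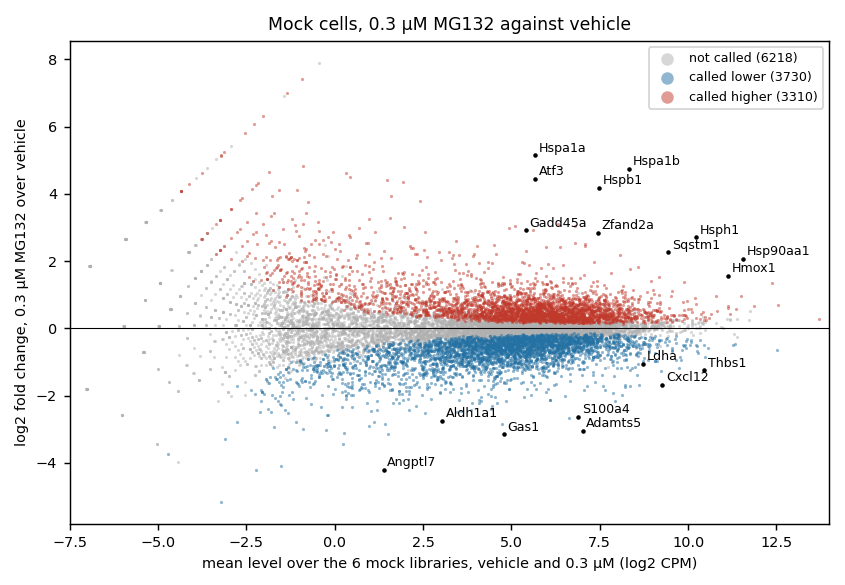
Each point is 1 tested gene, with its mean level in the 6 mock libraries (log2 CPM) on the x axis and the log2 fold change of 0.3 µM over vehicle on the y axis (red, called higher; blue, called lower; grey, not called). Of the labelled genes Hspa1a and Hspa1b lie highest, at 5.15 and 4.74, and Angptl7 lowest, at -4.21; the diagonal streaks on the left are genes with few fragments.

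Among genes above 10 CPM under vehicle, the chaperone genes Hspa1b and Hspb1 rose most. Of 12 tested members of the Hsp70 and Hsp110 families 9 rose and none fell, against 25.0% and 28.1% of all genes tested, and the median log2 change of the list was 0.67 against -0.02 over all genes. Hspa1a and Hspa1b, neighbouring and near-identical genes for the inducible Hsp70, led the list, and how reads were divided between them is uncertain. Hspa1b (chr17:35093374-35096183) had 23.5, 24.5 and 22.0 CPM under vehicle and 705, 519 and 646 CPM at 0.3 µM. The treated libraries were all far above the vehicle libraries, library 2 being the lowest of the 3. The change was 26.7-fold (log2 4.74, SE 0.21, adjusted p = 3.86e-11). Hspa1a (chr17:35106304-35109101) went from 2.81, 2.64 and 2.88 CPM to 122, 73.2 and 100.3 CPM, 35.4-fold. Hsph1, an Hsp110 protein that exchanges nucleotide on Hsp70 and helps it dissolve aggregates, had 337, 289 and 324 CPM under vehicle and 2242, 1799 and 2181 CPM at 0.3 µM. The groups lay far apart, a 6.55-fold rise (SE of log2 0.11). Its relative Hspa4l rose 3.73-fold. The constitutive Hsp70 gene Hspa8 is not among these values because Cuffdiff left it unprocessed in 9 of the 18 libraries, all 3 at 0.3 µM included.

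The co-chaperones that feed clients to Hsp70 and Hsp90 followed in breadth but not in size. Of 30 tested, 21 rose and 3 fell, with a median of 0.50. The J-domain proteins Dnaja4, Dnajb4, Dnajb1 and Dnaja1, which start the Hsp70 cycle, rose 3.70-fold, 3.49-fold, 3.43-fold and 2.60-fold. Dnajb1, the classical Hsp40, stood at 147, 150.1 and 143 CPM under vehicle and 553, 455 and 503 CPM at 0.3 µM, and library 2 was again the lowest of the treated group without reaching the vehicle range. Bag3, a nucleotide exchange factor that steers Hsp70 clients to autophagy, rose 2.63-fold, from 87.8 to 98.0 CPM under vehicle to 262, 237 and 245 CPM. The members that fell were Dnajb14, an endoplasmic reticulum J protein (2.46-fold lower), Dnajb5 (1.44-fold lower) and Stub1, the ubiquitin ligase CHIP (log2 -0.42).

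Among Hsp90, small heat shock proteins and heat shock factors, 7 of 10 rose and 1 fell (median 0.77). Hspb1, the holding chaperone Hsp27 (chr5:136363789-136365433), had 19.4, 19.8 and 16.7 CPM under vehicle and 373, 252 and 385 CPM at 0.3 µM. The rise was 18.1-fold (SE of log2 0.21, adjusted p = 2.32e-10), again with treated library 2 the lowest. Hspb8, the partner of Bag3, rose from 0.599, 0.0926 and 0.411 CPM to 4.27, 2.79 and 3.61 CPM, a level still under 5 CPM. Hsp90aa1, the inducible Hsp90, stood at 1177, 1156 and 1159 CPM under vehicle and 5141, 4478 and 5068 CPM at 0.3 µM. Hsp90ab1, its constitutive relative, stood at 3081, 3043 and 2850.0 CPM under vehicle and 7686, 7588 and 7692 CPM at 0.3 µM. Both groups were separate for each gene, by 4.21-fold and 2.56-fold. Hsf1 and Hsf2, the factors themselves, rose by log2 0.33 and 0.85, and both were picked here after their values were seen. Hspb6, the muscle-type Hsp20, was the member that fell (1.82-fold lower).

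Folding machines that act on fewer clients moved less. Of 14 subunits of the cytosolic chaperonin TRiC and of prefoldin, which fold actin and tubulin, 8 rose and 2 fell (median 0.31). The 8 were all TRiC subunits, led by Cct2 at 1.74-fold, and those that fell were the prefoldin subunits Pfdn5 (1.54-fold lower) and Pfdn1, the latter not called without vehicle library 2 or 3. In mitochondria, 6 of 12 chaperones and proteases rose and 2 fell. The protease Lonp1 went from 171, 181 and 168 CPM to 384, 369 and 394 CPM (2.21-fold), and the chaperonin pair Hspe1 and Hspd1 rose 2.00-fold and 1.76-fold. Timm17a, an import subunit, and the Hsp90 homologue Trap1 fell 1.36-fold and 1.29-fold, and Trap1 was not called without vehicle library 2.

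HSF1 binds repeats of the unit nGAAn in alternating direction, so promoters were read for such repeats to show what stands upstream of the leading genes. RefSeq promoters (build GRCm38.p6, 250 bases before each start) were matched by symbol for 10027 of the 13258 genes tested, and each motif was read on both strands. The heat shock element of 3 such units was in 1 of 29 matched heat shock genes called higher, Dnajb6, and in 0.479% of all promoters. The 2-unit motifs GAANNTTC and TTCNNGAA, which were added after those shares were seen and which lie inside that element, were in 10 of the 29 (34.5%) and in 12.1% of all. Among all genes called higher by 2-fold or more their share was 13.1%, and among those lower by as much 11.2%. The following stretches, chosen after the matches were seen, are from 3 of the 4 genes with a match that changed most and from Dnajb6, which alone held the element of 3 units, each on the strand of its gene, with the matched units in capitals.
Hspa1b, chr17:34959320-34959357, minus strand: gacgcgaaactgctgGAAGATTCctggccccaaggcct
Hspb1, chr5:135887787-135887844, plus strand: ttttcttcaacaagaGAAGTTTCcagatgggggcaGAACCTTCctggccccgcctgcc
Hsph1, chr5:149636347-149636384, minus strand: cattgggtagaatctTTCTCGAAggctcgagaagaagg
Dnajb6, chr5:29735837-29735879, plus strand: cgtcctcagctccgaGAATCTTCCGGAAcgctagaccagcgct
The stretch of Hspa1a reads the same as that of Hspa1b. A match is a description of letters in this window and not a bound site.

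Effector genes of the integrated stress response rose, and the genes of 2 of its kinases fell slightly. Of 19 tested regulators 11 rose and 2 fell (median 0.42). Atf3, a bZIP factor induced by many stresses (chr1:192994176-193007212), had 4.56, 3.93 and 5.02 CPM under vehicle and 104, 86.0 and 105 CPM at 0.3 µM. No treated library came near the vehicle range, and the change was 21.8-fold (log2 4.44, SE 0.12, adjusted p = 8.92e-15). Ddit3, which encodes the pro-apoptotic factor CHOP (chr10:126727849-126748842), stood at 8.34, 8.52 and 8.26 CPM under vehicle and 38.1, 38.1 and 39.5 CPM at 0.3 µM, a 4.60-fold rise with treated libraries within 2 CPM of each other. Ppp1r15a (GADD34), which directs a phosphatase to eIF2α and so ends the response, rose 5.32-fold, and Trib3, a pseudokinase target of CHOP, rose 4.94-fold. Atf4 itself rose by only log2 0.34 (SE 0.09). The members that fell were the kinase genes Eif2ak3 (PERK) and Eif2ak4 (GCN2), by 1.26-fold and 1.24-fold. The other kinase genes, Eif2ak1 and Eif2ak2, were not called.

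Most genes that supply amino acids and load them onto tRNA rose, few of them by much. For amino acid transport and synthesis, 15 of 19 rose and none fell (median 0.61). Slc3a2, the shared heavy chain of several amino acid exchangers, had 173, 178 and 162 CPM under vehicle and 599.7, 596 and 611 CPM at 0.3 µM, 3.52-fold higher. Slc6a9, a glycine transporter, rose 2.46-fold, and Psph, the last enzyme of serine synthesis, 1.98-fold. Asns, asparagine synthetase, stood at 213, 218 and 193 CPM under vehicle and 394, 364 and 406 CPM at 0.3 µM (log2 0.90). Slc7a11, the cystine carrier, stood at 10.0, 11.6 and 8.08 CPM under vehicle and 17.8, 14.9 and 18.9 CPM at 0.3 µM (log2 0.80). Neither gene's groups overlapped.

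Of 20 aminoacyl-tRNA synthetases 16 rose and none fell, with a median of 0.48. Without treated library 3, 1 of them was called lower. The seryl, cysteinyl, asparaginyl and threonyl enzymes led. Sars went from 213, 233 and 204 CPM to 486, 476 and 488 CPM, a narrow treated range at 2.23-fold the vehicle level. Cars rose 2.05-fold, Nars 2.02-fold and Tars 1.89-fold.

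ATF4 and CHOP bind, as partners of C/EBP proteins, composite sites of the form TGATGNAA. That motif was in 8 of the 33 matched promoters (24.2%) of the regulators, supply genes and synthetases called higher, in 5.53% of promoters of all genes called higher by 2-fold or more, and in 2.45% of all promoters. The 8 were those of Atf3, Chac1, Nupr1, Tars, Asns, Slc7a11, Aars and Gars. The matched letters in 4 of them are in capitals below, each on the strand of its gene, and TTGCATCA is the reverse strand of TGATGCAA.
Atf3, chr1:191183421-191183458, minus strand: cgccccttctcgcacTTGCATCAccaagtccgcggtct
Chac1, chr2:119351034-119351071, plus strand: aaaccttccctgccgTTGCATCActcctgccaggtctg
Slc7a11, chr3:50443638-50443694, minus strand: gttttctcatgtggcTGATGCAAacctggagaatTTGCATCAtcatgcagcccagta
Asns, chr6:7693210-7693247, minus strand: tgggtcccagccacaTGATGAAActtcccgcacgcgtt
Chac1, an enzyme that degrades glutathione, rose by log2 1.28 (SE 0.17), from 15.1, 15.9 and 13.5 CPM to 32.1, 37.9 and 37.6 CPM.

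Genes of the endoplasmic reticulum's own unfolded protein response moved less and both ways, 11 of 23 higher and 4 lower (median 0.20). Without treated library 1 or 2 only 7 were called higher, and without vehicle library 3 only 2 were called lower. Hspa5, the master chaperone BiP, had 1327, 1013 and 1275 CPM under vehicle and 2415, 2310.0 and 2314 CPM at 0.3 µM, 1.95-fold higher, the vehicle libraries being the more scattered. Canx (calnexin) rose 1.64-fold. Sdf2l1, an equally typical target of this response, fell 1.67-fold, and the other lower calls were Sel1l, Edem1 and Pdia4.

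**Figure D2:**
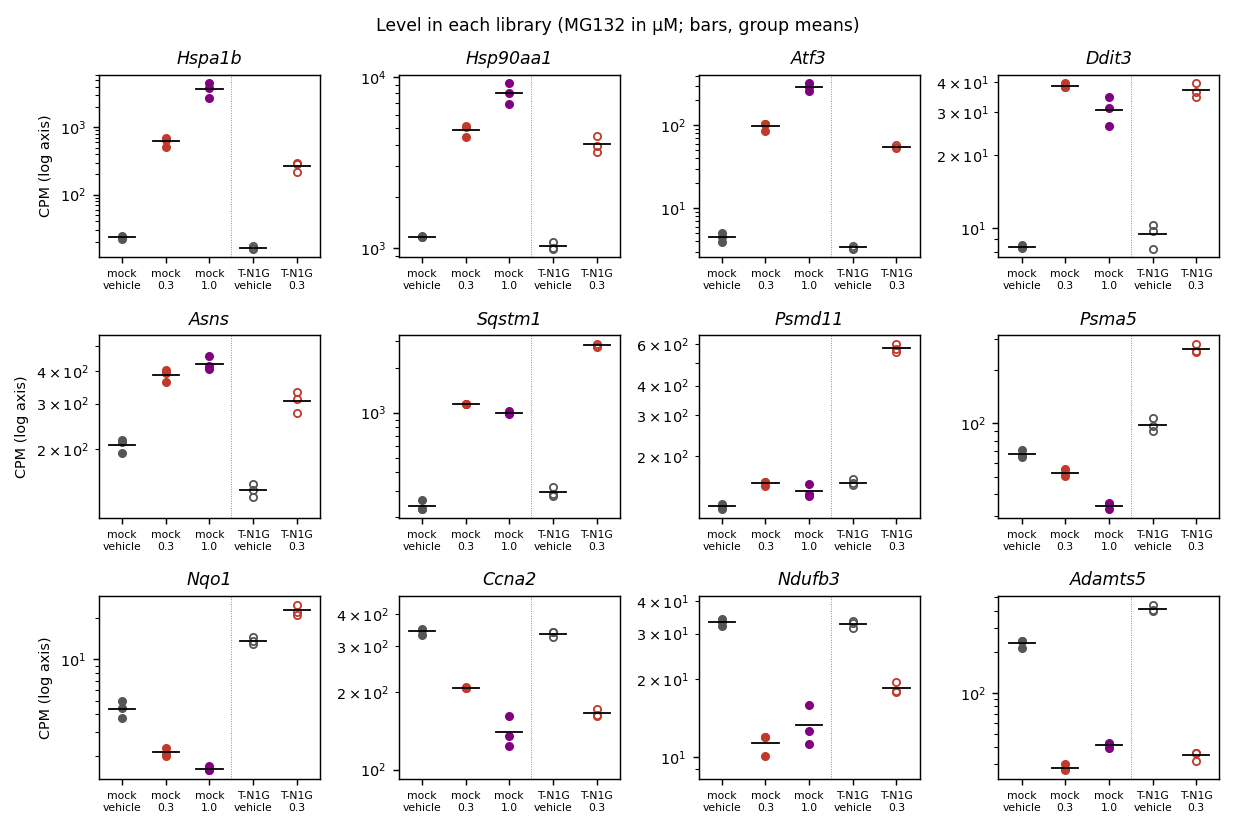
Each panel plots 1 gene's level in every library (CPM, log axis) for mock cells at vehicle, 0.3 and 1.0 µM MG132 (filled) and T-N1G cells at vehicle and 0.3 µM (open), with bars at the group means. In mock cells the 0.3 µM libraries lie above vehicle for Hspa1b, Hsp90aa1, Atf3, Ddit3, Asns, Sqstm1 and Psmd11 and below it for Psma5, Nqo1, Ccna2, Ndufb3 and Adamts5; Asns, Psmd11, Nqo1 and Ccna2 were chosen after their values were seen.

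Genes of the proteasome core changed little. Of the 14 subunits of the core particle 2 rose and 4 fell (median 0.01). Psma5, a subunit of the outer ring, went from 64.9, 71.2 and 66.2 CPM to 50.5, 55.0 and 52.4 CPM, 1.28-fold lower, and Psma2 fell 1.37-fold. Psmb2, a subunit of the inner ring, rose 1.28-fold. The remaining calls, Psma6 higher and Psma4 and Psmb5 lower, were slight, and with 1 library left out the core counts came to as few as 1 higher (without vehicle library 1 or 3 or any treated library) and 2 lower (without any vehicle library or treated library 1 or 2).

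The regulatory particle, which recognises and unfolds ubiquitin-tagged proteins, leaned upward, with 7 of 19 higher and only Shfm1 lower (median 0.17). Adrm1 and Psmd4, its ubiquitin receptors, rose 1.82-fold and 1.54-fold. Adrm1 stood at 97.5, 100.3 and 90.1 CPM under vehicle and 180.5, 174 and 170.1 CPM at 0.3 µM. Psmd4 stood at 109, 110.0 and 101 CPM under vehicle and 164, 167 and 163 CPM at 0.3 µM, again without overlap. Psmc4, an ATPase of the ring, rose 1.48-fold. Fitted on the 6 libraries alone, 15 of the 19 were called higher and 3 lower, in a fit that called 36.5% of 12302 genes higher and 37.4% lower. Among assembly chaperones and alternative activators, 3 of 16 rose and 6 fell. Psmf1, the inhibitor PI31, rose 1.79-fold, and the other genes that rose were Psmd9 and Psme3. Pomp, the maturation factor of the core, fell 1.52-fold, and so did Psmg2, Psmg3, Psmg4, Psmd5 and Psmd10, all assembly chaperones, by less.

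Nfe2l1, the Nrf1 gene (chr11:96678728-96691282), had 287, 280.2 and 273 CPM under vehicle and 360.0, 373 and 393 CPM at 0.3 µM, a rise of 1.34-fold (SE of log2 0.13, adjusted p = 0.00853). Of 12 genes for Nrf1 and the factors that process or degrade it, 4 rose and 4 fell. Ngly1, the N-glycanase that edits Nrf1 after it leaves the endoplasmic reticulum, fell most, from 11.2, 12.3 and 12.2 CPM to 4.02, 3.82 and 4.83 CPM (2.81-fold lower). Ogt, the O-GlcNAc transferase, fell 1.49-fold, and Ddi2, the protease that cleaves Nrf1, rose by log2 0.36. The remaining calls were Fbxw11 and Usp15 higher and Sel1l and Fbxw7 lower. In the CNC, Maf and BACH family, Nfe2l2 (Nrf2) at 36.8, 32.4 and 35.6 CPM under vehicle and 43.3, 40.9 and 44.9 CPM at 0.3 µM was not called (adjusted p = 0.0806), although it was with the replicate block or in fits without the 1.0 µM groups. Keap1, the adaptor that has Nrf2 degraded, fell 1.77-fold from 60.4, 61.3 and 64.7 CPM to 33.9, 37.2 and 34.0 CPM, and Bach2 fell 1.76-fold. Bach1 was level (log2 -0.00, SE 0.12), and Nfe2l3 lay near 1 CPM and was not called (log2 0.82), though it was without vehicle library 3 (log2 1.18) or treated library 3 (log2 1.10).

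Of 5 ubiquitin and ubiquitin-activating genes 3 rose and none fell, but only 1 was called without vehicle library 3 or any 1 treated library. That gene was Ubb, a polyubiquitin gene, with 263, 323 and 310.5 CPM under vehicle and 1043, 718 and 808 CPM at 0.3 µM. The treated libraries lay 2.86-fold higher, library 1 the highest. Uba1, the main ubiquitin-activating enzyme, was called at 1.15-fold, a call lost without vehicle library 2 or 3 or any 1 treated library. Of 20 genes for the segregase p97 and its cofactors 13 rose and 3 fell (median 0.38), the latter being Yod1, Derl2 and Ube4b. The lower count was 1 without any 1 of the vehicle libraries. Zfand2a (AIRAP), an arsenite-inducible factor of this group, far exceeded the rest, with 41.7, 44.3 and 41.5 CPM under vehicle and 302, 299.8 and 312 CPM at 0.3 µM. The change was 7.16-fold (SE of log2 0.08), and the next, Faf1, was 1.61-fold.

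Genes of the second route of protein disposal, autophagy and the lysosome, rose more often than not. Of 30 autophagy genes 17 rose and 5 fell (median 0.32), or 3 lower without vehicle library 2. Sqstm1 (p62), the receptor that links ubiquitin-tagged cargo to the autophagosome (chr11:50013654-50024322), had 226, 263 and 226 CPM under vehicle and 1138, 1145 and 1149 CPM at 0.3 µM. The treated libraries were almost equal and 4.80-fold above vehicle (adjusted p = 1.31e-12). Atg14, of the initiating lipid kinase, rose 2.52-fold and Atg12, the ubiquitin-like conjugate, 2.16-fold. The kinase gene Ulk2 fell 2.40-fold and the mitophagy receptor Bnip3 1.60-fold, followed by Atg9a, Wipi1 and Rb1cc1.

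Of 30 lysosomal and proton pump genes 17 rose and 3 fell (median 0.37), none by 2-fold. The enzyme Gla, which clears glycolipids, rose 1.88-fold, and the pump subunits Atp6v1d and Atp6v1h 1.69-fold and 1.66-fold. Atp6v0a1, a membrane subunit of the pump, fell 1.63-fold. It was the only lower call without any vehicle library or treated library 2 or 3, where Atp6v0e and Atp6v0c dropped out. Among 12 shuttle and aggresome factors 7 rose and 2 fell. The paralogous shuttles Ubqln1 and Ubqln2 parted, the former rising 1.72-fold and the latter falling 1.46-fold, and the shuttle Rad23b rose by log2 0.58.

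**Figure D3:**
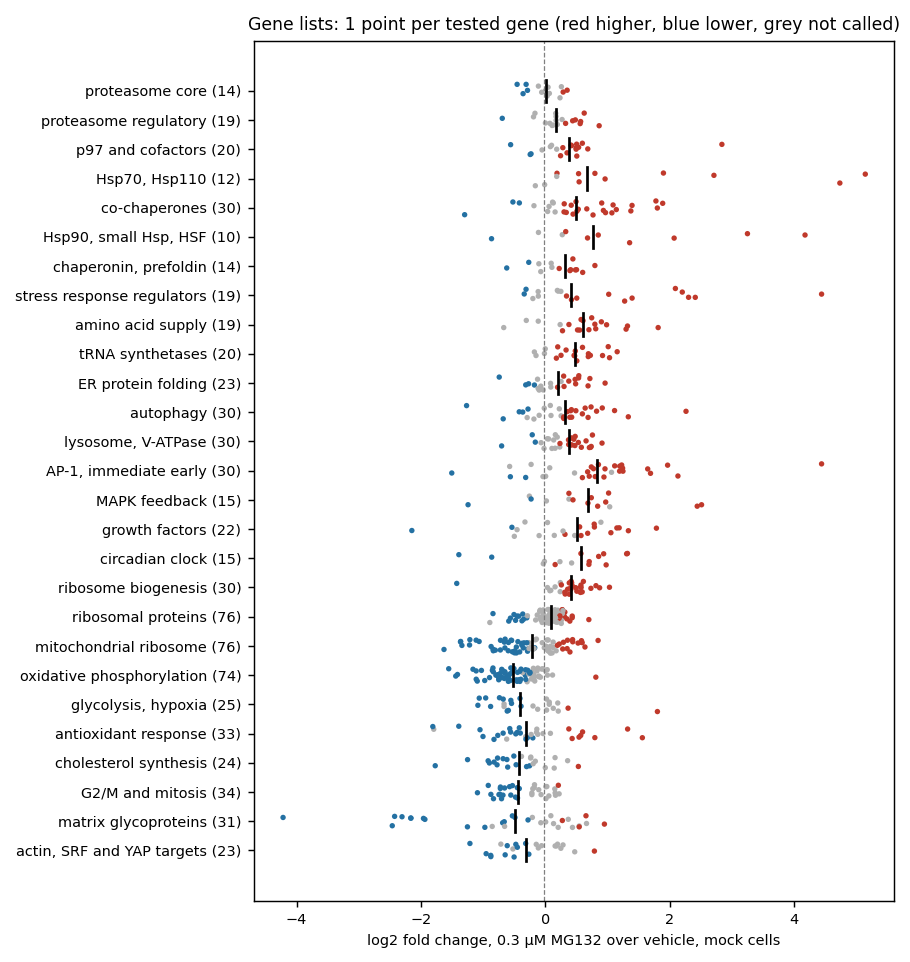
Each row is a gene list and each point a tested gene, placed by its log2 fold change at 0.3 µM over vehicle in mock cells (red, called higher; blue, called lower; grey, not called), with a black bar at the list's median and a dashed line at the median of all genes, -0.02. Medians of the chaperone, amino acid, synthetase and immediate-early lists lie to the right, at 0.67, 0.61, 0.48 and 0.83, and that of oxidative phosphorylation to the left, at -0.52.

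Antioxidant genes fell more often than they rose, 16 against 8 of 33 (median -0.31). Hmox1, haem oxygenase 1 (chr8:77617517-77624492), went against the list, with 1131, 1183 and 1076 CPM under vehicle and 3451, 3206 and 3345 CPM at 0.3 µM. It rose 2.95-fold (adjusted p = 8.30e-07). Gclc and Txnrd1, for glutathione and thioredoxin, rose by log2 0.43 and 0.60. Ephx1, an epoxide hydrolase, fell from 70.2, 58.9 and 72.3 CPM to 18.2, 16.6 and 22.6 CPM, 3.50-fold, and Gsta4, a glutathione transferase of low level, fell 2.62-fold. Nqo1, the quinone reductase that is the usual readout of Nrf2, had 4.97, 3.80 and 4.47 CPM under vehicle and 2.08, 2.30 and 2.00 CPM at 0.3 µM (log2 -1.05, SE 0.13), and the abundant peroxidase gene Prdx1 fell by 0.83 on the log2 scale. The other glutathione transferases called were also lower, with Gstp1 at log2 -0.76, Gstm1 at -0.47 Gstm5 at -0.45, and Gstm2 lower than these. Gpx2 and Gsta2 are listed at 0 in all 6 libraries. The motif TGACNNNGC of the antioxidant element was in 4 of 14 matched promoters of the genes that fell, in 2 of 5 of those that rose and in 14.1% of all.

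Of 21 genes of iron and haem handling 2 rose and 6 fell. Tfrc, the transferrin receptor through which iron enters, had 195, 232 and 216 CPM under vehicle and 60.0, 70.9 and 64.3 CPM at 0.3 µM, 3.29-fold lower. Slc48a1, a haem transporter, fell 1.75-fold. Apart from Hmox1 the member that rose was Alad, an early enzyme of haem synthesis, at 1.23-fold. Of the metal response genes Mt2, a metallothionein, and its activator Mtf1 rose 1.44-fold and 1.33-fold, and the zinc importer Slc39a10 fell 2.03-fold. Slc30a1, a zinc exporter, was called at 1.24-fold higher, but not without vehicle library 2 or 3 or treated library 2 or 3.

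Immediate-early genes, which growth signals and stress kinases switch on through AP-1 and serum response factor, were higher after 12 h. Of 30 tested 20 rose and 3 fell, with the largest median of the lists with 10 or more tested members, 0.83. After Atf3, Ier3, an inhibitor of cell death, rose 3.91-fold, from 16.5, 15.9 and 15.3 CPM to 59.9, 61.6 and 65.1 CPM, and Fosl1, the AP-1 subunit Fra-1, rose 3.23-fold, from 6.82, 5.60 and 7.12 CPM to 19.0, 20.8 and 23.4 CPM. Neither gene's groups overlapped. Fos, Jun, Junb and Myc rose by log2 1.25, 1.12, 0.94 and 1.20, and these were picked for their roles after their values were seen. Egr1, often induced beside Fos, went the other way, from 48.1, 39.3 and 52.5 CPM to 18.4, 11.1 and 19.9 CPM (2.83-fold lower, adjusted p = 0.0104). The other lower calls were Srf and Ier5l, and the count of lower members was 1 without vehicle library 1 or treated library 2. The AP-1 motif TGANTCA was in 1 of 18 matched promoters of the members called higher (5.56%), against 5.6% of all promoters. It was in 12.2% of promoters of all genes called higher by 2-fold or more and in 7.61% of those called lower by as much.

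The feedback regulators of MAP kinases rose with them, 9 of 15 higher and 2 lower (median 0.69). Dusp1, a nuclear phosphatase of JNK and p38, had 42.4, 36.8 and 41.3 CPM under vehicle and 229, 227 and 232 CPM at 0.3 µM. Dusp4, its relative, had 43.4, 40.8 and 43.1 CPM under vehicle and 238, 232 and 222 CPM at 0.3 µM. The groups were far apart for both, at 5.71-fold and 5.44-fold (SE of log2 0.11 and 0.15). Spry1, an inhibitor of receptor tyrosine kinase signals, fell 2.37-fold. Spred1 was lower by 1.17-fold, a call lost without any vehicle library or treated library 1 or 2.

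Of 27 inflammatory genes 13 rose and 3 fell (median 0.70). Cxcl10, a chemokine for T cells, rose 3.89-fold and Ccl2, for monocytes, 2.61-fold, from 32.6, 31.1 and 33.1 CPM to 82.2, 84.3 and 85.9 CPM. Inhibitors of NF-κB rose as well, Nfkbia by log2 0.70 and Tnfaip3 by log2 1.28. Cxcl12, a stromal chemokine (chr6:117118553-117131386), fell 3.21-fold, from 954, 944 and 936 CPM to 295, 298 and 291 CPM. Csf1, the macrophage growth factor, fell 3.19-fold, from 619.6, 582 and 579.6 CPM to 189, 178 and 190.2 CPM, and the adhesion molecule Vcam1 fell less. Summed leukocyte markers were 7.85 to 8.79 CPM under vehicle and 11.0 to 12.3 CPM at 0.3 µM, with Ptprc under 1 CPM throughout, and their part in these results was not tested. Of 19 interferon response genes Oasl1 (4.54-fold) and Rsad2 (4.59-fold) were called higher and none lower. Rsad2 was not called without vehicle library 2 or 3 or treated library 1. The list's median was nonetheless 0.65. The treated libraries all lay above the vehicle libraries for 12 of the 19 genes and all below for 1, against 35.2% and 37.7% of all genes.

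Growth factor genes rose in 11 of 22 cases and fell in 2 (median 0.51). Vegfa, the angiogenic factor, had 15.2, 14.7 and 15.2 CPM under vehicle and 38.7, 35.2 and 39.6 CPM at 0.3 µM, 2.52-fold higher. Bdnf, a neurotrophin, had 23.4, 22.1 and 24.3 CPM under vehicle and 51.2, 53.4 and 54.5 CPM at 0.3 µM, 2.28-fold higher, and Hbegf, an EGF receptor ligand, rose by log2 1.15. Igf1 (chr10:87321801-87399792) fell from 43.0, 45.4 and 52.5 CPM to 9.98, 9.94 and 11.9 CPM, 4.43-fold, and Pdgfa fell 1.45-fold. Its receptor Pdgfra rose from 52.7, 48.9 and 58.0 CPM to 110.1, 109 and 115 CPM. Kdr, the VEGF receptor and an endothelial marker, rose 3.75-fold. Of 7 endothelial markers tested Kdr alone rose, and Eng and Tek, under 3 CPM in all 6 libraries, fell. The summed endothelial markers, Kdr included, were 7.94 to 8.97 CPM under vehicle and 19.6 to 27.4 CPM at 0.3 µM, with Pecam1 and Cdh5 under 1 CPM throughout, and their part was not tested.

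Signalling genes of the Wnt, Hedgehog, Notch and BMP pathways went both ways, 6 of 32 higher and 11 lower (median -0.17). Gas1, a co-receptor for Hedgehog ligands, fell most, with 43.6, 46.4 and 59.4 CPM under vehicle and 5.21, 5.14 and 6.49 CPM at 0.3 µM (8.86-fold lower). Smad6, an inhibitor of BMP signals, fell 3.02-fold. Axin2 and Gli1, each both a target and a regulator of its pathway (Wnt and Hedgehog), rose 5.28-fold and 3.61-fold, to under 10 CPM. Of 15 clock genes 9 rose and 2 fell (median 0.57). Cry1, a repressor of the clock, had 29.8, 28.3 and 30.0 CPM under vehicle and 70.2, 73.9 and 74.2 CPM at 0.3 µM. Bhlhe40 (Dec1), a second repressor, had 32.3, 34.0 and 35.0 CPM under vehicle and 83.5, 85.4 and 84.1 CPM at 0.3 µM. Both were raised with no overlap, at 2.48-fold and 2.50-fold. Arntl, the clock's activator BMAL1, rose 1.97-fold, and its targets Dbp and Per3 fell 2.62-fold and 1.82-fold.

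Most genes that build ribosomes rose. Of 30 nucleolar processing and RNA polymerase I genes 23 rose and 1 fell, with a median of 0.41. Nop14 and Nop58, of the small-subunit processome and of the box C/D particle, rose 2.04-fold and 1.83-fold. Nop14 had 149, 158 and 134 CPM under vehicle and 306, 299.8 and 295 CPM at 0.3 µM. Nop58 had 273, 287 and 265 CPM under vehicle and 526, 483 and 501 CPM at 0.3 µM, and neither gene's groups overlapped. Nop10, a short subunit of the particle that makes pseudouridine, was the 1 that fell (2.68-fold lower). The ribosomal proteins themselves hardly moved, 12 of 76 higher and 11 lower (median 0.10), and these counts depended on the fit. Without vehicle library 2 only 5 were called lower, and with the 6 libraries fitted alone 39 were called higher, in a fit that called 36.5% of all genes higher. With the replicate number as a block 21 were called higher.

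The nuclear genes for mitochondrial energy production fell. Of 74 tested subunits of the respiratory chain and ATP synthase 52 fell and 1 rose (median -0.52), and no list with 10 or more tested members had a lower median. Ndufb3, of complex I (chr1:58643443-58652792), had 32.1, 33.2 and 34.3 CPM under vehicle and 11.9, 10.1 and 11.9 CPM at 0.3 µM. The groups were far apart at 2.93-fold (SE of log2 0.14, adjusted p = 6.17e-08). Uqcrh of complex III and Cox7b of complex IV fell 2.71-fold and 2.66-fold, Cox7b from 115, 131 and 125 CPM to 47.5, 49.6 and 42.1 CPM. Sdhc of complex II fell by 1.09 on the log2 scale and Atp5k of ATP synthase fell by 1.03. The exception was Cox7a2l, a supercomplex factor, at 88.8, 101 and 93.0 CPM under vehicle and 162, 167 and 168 CPM at 0.3 µM (1.76-fold higher). Ndufs5 is listed at 0 in all 6 libraries. Mitochondrial ribosomal proteins fell in 36 of 76 cases and rose in 15 (median -0.21), from Mrps21, 3.09-fold lower, to Mrps6, 1.80-fold higher.

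Transcript length moved with these results. The length implied by a gene's fragments over its FPKM was 466 bases at the median for the oxidative phosphorylation list, 876 for the mitochondrial ribosome and 2750 for all genes tested. Genes were divided by length into 10 classes of equal size. In the class of shortest transcripts, up to 997 bases, the median log2 change was -0.28, with 42.4% called lower and 11.7% higher. In the next class it was -0.08, and in the other 8 it lay between -0.01 and 0.04. Within the shortest class, 38 of 54 oxidative phosphorylation genes (70.4%) fell against 42.4% of all genes there, and in the next class 10 of 12 (83.3%) against 30.8%. The classes do not match these genes fully in length. Their median was 361 bases against 691 for the shortest class, and 1157 against 1233 for the next. With the length trend removed from each library, an alternative chosen after the data were seen, 38 of the 74 were called lower and 8 higher. The ribosomal proteins, of 506 bases at the median, then gave 54 higher and 2 lower, the proteasome core 6 higher and 2 lower, the mitochondrial ribosome 21 higher and 26 lower, and Shfm1, Timm17a and Psmg3 were no longer called. The part of length in these counts was otherwise not tested.

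**Figure D4:**
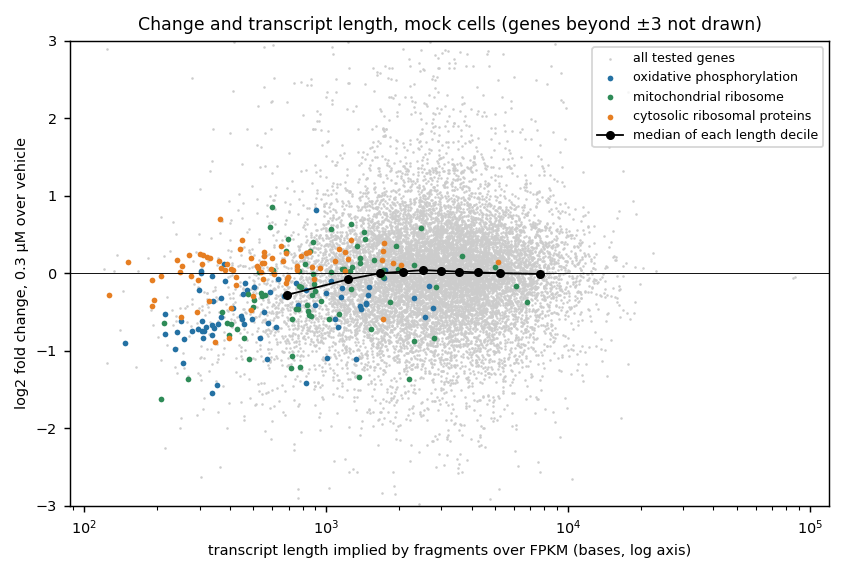
Each point is a tested gene, with the transcript length implied by its fragments and FPKM (bases, log axis) on the x axis and the log2 fold change at 0.3 µM over vehicle on the y axis; coloured points are 3 gene lists and black points the medians of the 10 length classes. The black points start at -0.28 for the shortest genes and stay between -0.08 and 0.04 after that, and most oxidative phosphorylation genes (blue) lie below them, while the ribosomal proteins (orange) lie on both sides of 0.

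In cholesterol synthesis 14 of 24 genes fell (median -0.43) and only Cyp51 rose, a call lost without treated library 3; with the replicate block 2 rose. Mvk and Mvd, kinase and decarboxylase of the mevalonate pathway, fell 2.38-fold and 1.89-fold, Mvk from 55.4, 63.2 and 58.1 CPM to 22.1, 25.4 and 26.8 CPM. Dhcr7, the last enzyme of the pathway, fell 1.86-fold and Tm7sf2, a sterol reductase of low level, 3.41-fold. Hmgcs1 is listed at 0 in all 6 libraries. The sterol motif TCACNCCAC was in none of 13 matched promoters of the genes that fell and in 1.2% of all, while CCAAT was in 12 of the 13 (92.3%) and in 40.7% of all. In fatty acid synthesis 5 of 17 fell and 4 rose, against 28.1% and 25.0% of all genes, with 3 lower without vehicle library 2. Acss2, which makes acetyl-CoA, fell 2.60-fold and the elongase Elovl6 2.23-fold, while its relative Elovl5 rose 1.51-fold. The remaining calls were Gpam, Scd2 and Elovl1 lower and Mid1ip1, Me1 and Srebf1 higher.

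Of 25 glycolytic and hypoxia-inducible genes 12 fell and 2 rose (median -0.41). Ldha, lactate dehydrogenase, had 568, 569.5 and 578 CPM under vehicle and 276, 269 and 276 CPM at 0.3 µM, 2.09-fold lower. Pdk1, which keeps pyruvate out of mitochondria, fell 1.94-fold. Ndrg1, a stress and hypoxia gene, rose 3.49-fold, and Hk2, the second that rose, was not called without vehicle library 2 or 3 or treated library 1 or 3.

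Genes of mitosis fell and those of DNA replication did not go 1 way. Of 34 G2 and mitosis genes 18 fell (median -0.43) and 1, Cenpf, was called higher, though not without vehicle library 2 or treated library 1 or 2; with the replicate block 2 were. Ccnb2, a mitotic cyclin, had 98.6, 98.0 and 99.6 CPM under vehicle and 45.6, 46.5 and 47.0 CPM at 0.3 µM, 2.13-fold lower. Plk1, the mitotic kinase, fell 1.89-fold and Ube2c, which works with the anaphase-promoting complex, 1.83-fold. Of the promoters of the genes that fell, 11 of 16 (68.8%) held CCAAT and 6 (37.5%) the cell cycle motif TTTGAA, against 40.7% and 12.6% of all. For G1 and DNA replication 15 of 44 rose and 11 fell (median 0.13), against 25.0% and 28.1% of all genes. The lower count was 7 without vehicle library 2 or 3. The licensing factor Cdt1 rose 1.90-fold. Tk1, thymidine kinase, fell 2.27-fold, E2f1, the G1 transcription factor, 1.87-fold and Cdkn2c, a CDK inhibitor, 2.05-fold. The cyclins Ccnd1, Ccnd2 and Ccnd3 fell, with log2 changes of -0.79, -0.71 and -0.89.

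Targets of p53 were divided, 5 of 23 higher and 9 lower (median -0.16). Gadd45a, a stress gene with other inducers too, had 10.3, 9.54 and 9.72 CPM under vehicle and 73.2, 76.5 and 74.2 CPM at 0.3 µM, 7.57-fold higher. Ccng1, a more particular target, went from 365, 334 and 346 CPM to 138, 125 and 127 CPM, 2.68-fold lower, and Cdkn1a, which encodes p21, fell by 0.77 on the log2 scale. The other members that rose were Pmaip1, Trp53 itself, the death receptor Tnfrsf10b and Sesn2. In the BCL2 family 4 of 15 rose and 5 fell, against 25.0% and 28.1% of all genes. Pmaip1 (NOXA), a killer protein, had 97.6, 93.9 and 100.5 CPM under vehicle and 434, 418 and 485 CPM at 0.3 µM, 4.58-fold higher. Bcl2l11 (BIM), another, had 15.9, 16.8 and 17.8 CPM under vehicle and 46.1, 45.9 and 43.6 CPM at 0.3 µM, 2.69-fold higher. Bid also rose (log2 0.76), and Hrk was called higher from 1 fragment in the 3 vehicle libraries together. The members that fell were the killer Bad (1.78-fold), the effectors Bax and Bak1 (log2 -0.34 and -0.68) and the protectors Bcl2 and Bcl2l1 (log2 -0.71 and -0.61).

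Of the extracellular matrix, the main product of fibroblasts, 15 of 31 glycoprotein and proteoglycan genes fell and 4 rose (median -0.49). The summed level of the full list of 33 was nonetheless not lower. It was 12670 to 14010 CPM under vehicle and 14200 to 14410 CPM at 0.3 µM. The small leucine-rich proteoglycans Ogn and Prelp fell 4.94-fold and 5.50-fold, Ogn from 35.5, 33.6 and 40.0 CPM to 6.55, 7.10 and 8.44 CPM. Thbs1, thrombospondin 1, had 2350.0, 1920.0 and 1641 CPM under vehicle and 952, 795 and 736 CPM at 0.3 µM, 2.38-fold lower. Fn1, fibronectin, rose 1.93-fold, from 2110.0, 1817 and 1943 CPM to 3646, 3737 and 3962 CPM, and Fbln2 1.57-fold, and the others that rose were Postn and Nid1. Among collagens and their enzymes 8 of 30 fell and 6 rose (median -0.07), against 28.1% and 25.0% of all genes. The lower count was 5 without vehicle library 1 or 2. Col3a1 (chr1:45368383-45406551), a fibrillar collagen, had 489, 513 and 487 CPM under vehicle and 142, 156 and 159 CPM at 0.3 µM, 3.25-fold lower. Col8a1 fell 3.73-fold, while the hydroxylases P4ha2 and Plod1, which modify collagen chains, rose 3.01-fold and 2.07-fold.

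Of 28 matrix proteases and their inhibitors 8 rose and 9 fell (median 0.14), against 25.0% and 28.1% of all genes. Adamts5, an aggrecanase (chr16:85858402-85901370), had 214, 239.8 and 240.0 CPM under vehicle and 27.1, 29.9 and 27.6 CPM at 0.3 µM. The groups were tight and 8.21-fold apart (SE of log2 0.08, adjusted p = 8.92e-15). Mmp10, a stromelysin, had no fragment in the 3 vehicle libraries and 9, 8 and 8 in the treated ones, at least 8.9-fold higher against a floor of 3 fragments over the vehicle group; limma on FPKM did not call it. Of 23 contractile genes and targets of SRF and YAP 11 fell and only Cyr61, a matricellular YAP target, rose (1.73-fold). Tagln (SM22), an actin binder, fell 2.32-fold, and Cnn2, calponin 2, from 637, 608 and 601 CPM to 321, 299.9 and 334 CPM. Among tubulins and stathmin 4 of 13 rose and 3 fell, against 25.0% and 28.1% of all genes. Tubb3 rose 2.13-fold and Tubb4b fell 1.94-fold, from 559, 554 and 561 CPM to 279, 291 and 291 CPM. Tuba4a, Tuba1c and Tubb2b also rose, and Tuba1b and Stmn1 also fell.

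Among the genes of largest change were several outside these groups. S100a4, a calcium-binding protein used as a fibroblast marker (chr3:90407692-90409967), had 192, 208 and 212 CPM under vehicle and 32.3, 33.2 and 33.6 CPM at 0.3 µM, 6.18-fold lower. Aldh1a1 and Aldh1a7, aldehyde dehydrogenases of which the former makes retinoic acid, fell 6.73-fold and 7.20-fold. Angptl7, a secreted angiopoietin-like protein, fell from 5.48, 4.44 and 4.93 CPM to 0.149, 0.489 and 0.146 CPM, and Figf, the lymphatic growth factor VEGF-D, from 45.3, 44.0 and 49.8 CPM to 6.60, 6.36 and 6.44 CPM. On the higher side, Krt16, a keratin of stressed epidermis, went from 0.368, 0.139 and 0.228 CPM to 5.71, 4.65 and 5.66 CPM, and Stmn4, a stathmin of neurons, from 0.553, 0.741 and 0.821 CPM to 11.5, 8.61 and 9.41 CPM. Gjb2, the gap junction protein connexin 26, had 18.6, 17.2 and 13.7 CPM under vehicle and 143, 133 and 148 CPM at 0.3 µM, 8.57-fold higher. The epithelial tight junction gene Cldn4 had no fragment under vehicle and 15, 18 and 15 at 0.3 µM, at least 17.1-fold higher by the same floor. Summed epithelial markers, mostly Krt19 and Krt14, were 206 to 214 CPM under vehicle and 262 to 305 CPM at 0.3 µM, with Epcam under 1 CPM throughout. Of the 8 epithelial markers tested 5 were called higher, and of 17 fibroblast markers 3 were called higher and 7 lower. The part of other cell types in these results was not tested.

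To place the lower dose on the scale of the higher one, the step from 0.3 to 1.0 µM was tested directly. It shares the 3 libraries at 0.3 µM with the comparison above, so the values are set side by side and no agreement is drawn from them. Of all genes 2895 (21.8%) rose and 3682 (27.8%) fell in this step. Hspa1b changed by log2 4.74 up to 0.3 µM and by a further 2.58 (SE 0.19) from there. Hsph1 changed by 2.71 and then 1.53, Bag3 by 1.40 and then 0.97, and Hsp90ab1 by 1.36 and then 0.35. The stress regulators differed among themselves. Atf3 went up by 4.44 and then 1.57, and Ppp1r15a by 2.41 and then 1.13, whereas Ddit3 stood at 2.20 and then -0.33 (adjusted p = 0.0105) and Trib3 at 2.30 and then 0.19 (adjusted p = 0.304). Sqstm1 rose by 2.26 up to 0.3 µM and was -0.19 (SE 0.08) in the further step. For Slc3a2 the further step was 0.17 (SE 0.15, adjusted p = 0.359).

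By list, 6 of 12 Hsp70 and Hsp110 genes were called higher in the step and 2 lower, and of 30 co-chaperones 14 higher and 5 lower. Of 19 stress regulators 8 were higher and 4 lower, and of 19 amino acid supply genes 5 were higher and 5 lower. Over all genes the shares were 21.8% higher and 27.8% lower. Called lower in the step were 28 of 34 mitosis genes, 18 of 24 cholesterol genes and 47 of 74 oxidative phosphorylation genes, whether or not they were lower at 0.3 µM. Some genes turned. Ccl2 was called higher at 0.3 µM and lower in the step, with 32.2 ± 1.06, 84.2 ± 1.83 and 30.3 ± 4.85 CPM at vehicle, 0.3 and 1.0 µM (mean ± SD, n = 3 each). Pdgfra had 53.2 ± 4.55, 112 ± 3.10 and 55.3 ± 8.63 CPM, and Foxc2, a mesenchymal forkhead factor, 1.76 ± 0.214, 4.72 ± 0.610 and 2.24 ± 0.471 CPM. In the opposite sense Thbs1 had 1970.0 ± 357, 827 ± 112 and 3299 ± 1411 CPM, Cxcl12 944 ± 9.32, 295 ± 3.31 and 712 ± 56.1 CPM, and Egr1 46.7 ± 6.71, 16.5 ± 4.69 and 174 ± 65.6 CPM. In all 6 genes both steps were called.

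The same dose in T-N1G cells, compared in libraries that share none with the mock comparison, called 3858 genes higher (29.1%) and 4014 lower (30.3%). Of the genes called higher in mock cells 2261 were also called higher there (68.3% of those in mock cells, 58.6% of those in T-N1G cells), and of those lower 2567 (68.8% and 64.0%). A direct test of the difference between the responses called 1878 genes (14.2%) with a higher and 1454 (11.0%) with a lower difference. This difference is the log2 change in T-N1G cells minus that in mock cells, so a lower one can be a smaller rise or a larger fall. All 14 core and 17 of 19 regulatory proteasome genes were among the former, and Psma5, which fell in mock cells, went from 98.0 ± 8.34 to 262 ± 16.6 CPM in T-N1G cells (difference in log2 1.78, SE 0.13, adjusted p = 5.24e-08). Of antioxidant genes 25 of 33 had a higher difference and 1, Hmox1, a lower. Nqo1 went from 13.7 ± 0.747 to 22.7 ± 2.08 CPM there (difference 1.78, adjusted p = 6.42e-07). Keap1 fell in mock cells and had a difference of 1.41 (SE 0.12).

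Over all genes 14.2% had a higher and 11.0% a lower difference, and in T-N1G cells 29.1% rose and 30.3% fell. The list counts below are to be read beside these shares. In the heat shock lists differences were called in both directions. Among 12 Hsp70 and Hsp110 genes 2 had a higher difference (Hspa9 and Hspa13) and 3 a lower (Hsph1, Hspa4l and Hspa2). Among 10 Hsp90, small heat shock protein and HSF genes 3 were higher (Hspb6, Hsf1 and Hsf2) and 2 lower (Hspb8 and Serpinh1). Among 30 co-chaperones 4 were higher (Dnajb2, Dnajb12, Bag2 and Hspbp1) and 5 lower (Dnaja1, Dnaja4, Dnajb4, Bag5 and Fkbp4). Among 19 stress regulators 3 had a higher difference (Atf4, Ppp1r15a and Eif2ak1) and 1 a lower (Ddit4), and among 19 amino acid supply genes 1 a higher (Slc7a11) and 1 a lower (Slc1a5). For Hsph1 the difference was -0.94 (SE 0.14), and for Atf3, with 3.37 ± 0.135 to 55.6 ± 3.01 CPM there, the difference of -0.40 was not called (adjusted p = 0.0926). Of growth factor genes 11 of 22 had a lower difference and none a higher, and in T-N1G cells 5 rose and 9 fell (median -0.36). Of immediate-early genes 10 of 30 had a lower difference and 1, Fosl1, a higher, and in T-N1G cells 12 rose and 6 fell (median 0.27). Bdnf differed by -0.69 and Bcl2l11 by -1.67 (adjusted p = 1.13e-06). Among clock genes Bhlhe40, raised in mock cells, had 37.1 ± 3.45 and 33.1 ± 4.13 CPM in T-N1G cells (difference -1.48, SE 0.18). Of the Wnt, Hedgehog, Notch and BMP genes 15 of 32 had a lower difference, Axin2 and Gli1 among them, and 1, Smo, a higher. In T-N1G cells 17 of these genes fell (median -0.93) and in mock cells 11 (median -0.17). Of oxidative phosphorylation genes 23 of 74 had a higher difference and none a lower, and 28 fell in T-N1G cells against 52 in mock cells. The median log2 change of the shortest length class was -0.14 in T-N1G cells against -0.28 in mock cells, and its part in that count was not tested.

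**Figure D5:**
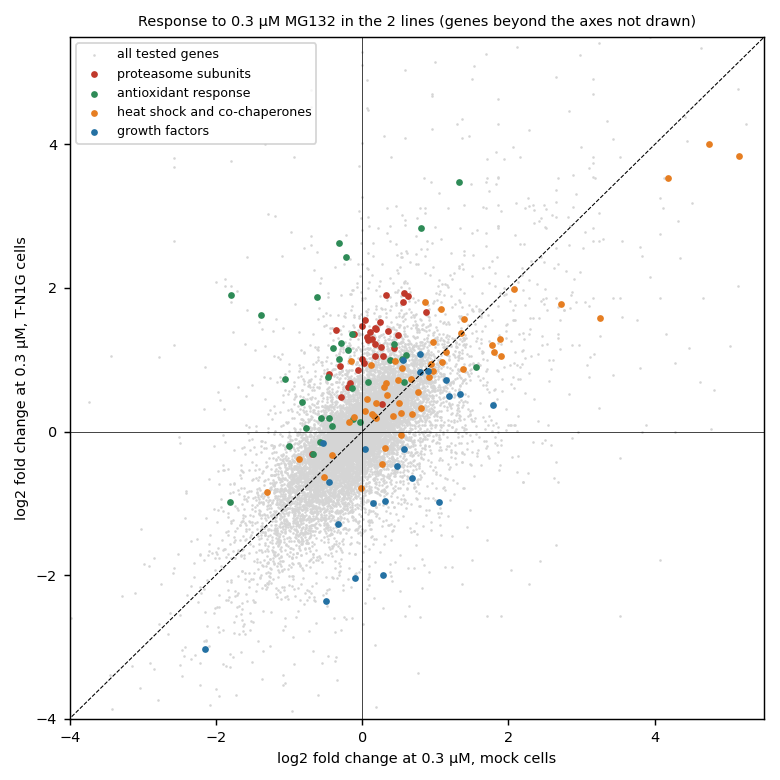
Each point is a tested gene, with its log2 fold change at 0.3 µM over vehicle in mock cells on the x axis and in T-N1G cells on the y axis, and the dashed line marks equal responses. Most proteasome genes (red) and antioxidant genes (green) lie above the line, heat shock genes (orange) lie on both sides of it and many growth factor genes (blue) below it; Psma5, at -0.36 in mock and 1.42 in T-N1G cells, is 1 of the red points.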

How the data were processed

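RNA was prepared with RNeasy and sequenced from poly(A)-selected, strand-specific libraries, per the labels' protocols. The submitters' processing notes name bcl2fastq 2.16.0.10, TopHat2 2.0.8b, Cuffdiff 2.1.1 and mouse build mm9. No source used here gives the annotation or the strand setting. The authors deposited, per the file headers, an estimated count of fragments that Cuffdiff made for each gene and library, without scaling. They also deposited Cuffdiff's FPKM, per the file headers. Between 98.16% and 98.51% of a library's counts were whole to within 1e-06, and they were rounded. Condition names were read as line and dose and the replicate number as that of the sample title, a link the files do not state. Genes marked HIDATA in these tables, Hspa8 among them, were dropped. Genes marked FAIL in some libraries were kept. Nfe2l1 was so marked in 7 of the 18 libraries, none of them among the 6 compared here. Some measured genes are not reported here. All 18 libraries entered 1 edgeR 4.0.16 quasi-likelihood fit of 6 group means (R 4.3.3; TMM scaling, filterByExpr), with contrasts for each response, the dose step and the difference between lines. The alternatives used limma 3.58.1 on log2(FPKM + 1), DESeq2 1.42.0, other scalings, filters and library sets, and each library left out. The script was tested on simulated data with known changes. Mock vehicle and mock 0.3 µM libraries of the same number deviated together from their group means. Correlations were 0.300, 0.242 and 0.248 for the same numbers and -0.156 to -0.103 for different ones. Centring each group on its own mean makes the latter negative once the former are positive. Only the former therefore speak for pairing by number. The other groups were not examined for pairing. The main fit left the pairing out, and fits with the number as a block are among the alternatives. The numbers are in the sample titles, and the labels do not say what they share. All replicate pairs differed by more than sampling noise. Members and gene lists were chosen with earlier results of these data known. Named genes are the 12 largest changes each way (at least 2 CPM, groups apart), up to 4 called members of each list and up to 2 in the other direction, all CNC, Maf and BACH genes, the most abundant genes changed 2-fold, the largest differences between lines and genes that turned with dose. Others were chosen after their values were seen. These are the genes given only by name, and Atf4, Atp5k, Bak1, Bax, Bcl2, Bcl2l1, Bid, Ccnd1 to Ccnd3, Cdkn1a, Ddi2, Fos, Gclc, Gstm1, Gstm2, Gstm5, Gstp1, Hbegf, Hsf1, Hsf2, Jun, Junb, Myc, Nfkbia, Nqo1, Prdx1, Rad23b, Sdhc, Stub1, Tnfaip3 and Txnrd1. Asns, Chac1 and Slc7a11 were taken for their promoters.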

Additional observations from a re-analysis of the deposited data

Results flagged for a closer look

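Of the named genes 16 were picked for the difference between the lines' responses to 0.3 µM MG132. This is T-N1G minus mock on the log2 scale, by edgeR's test of the difference itself. They have the largest called differences each way among genes also called in mock cells, with a mean of at least 2 CPM. The higher differences were in Fam13a (4.20), Cpxm1 (2.91), Map1a (2.75), Palm3 (2.71), Pafah2 (2.67), Ptprn (2.54), Kcnab2 (2.43) and Sfxn5 (2.38). Map1a, a microtubule-associated protein, fell in mock cells (log2 -1.18) and rose in T-N1G cells (log2 1.57). Kcnab2, a potassium channel subunit, fell in mock cells (log2 -2.51) and was level in T-N1G cells (log2 -0.08). The lower differences were in Gjb2 (-2.34), Axin2 (-2.26), Edn1 (-2.25), Slc7a2 (-2.16), Gli1 (-2.13), Pcsk4 (-2.12), Hr (-2.08) and Col8a2 (-2.04). Edn1, the vasoconstrictor endothelin 1, rose in mock cells (log2 1.06) and was at -1.19 in T-N1G cells. Gjb2 had the least certain difference of these (SE 0.68, adjusted p = 0.0218). Of the other 253 named genes, 88 had a called difference, 52 higher and 36 lower, against 14.2% and 11.0% of all genes. Most named genes were picked by their change in mock cells, which enters this difference. No result about them is drawn from the count.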

How the results depend on the processing

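Leaving out 1 library at a time gave 2898 to 3133 genes higher and 3106 to 3350 lower at 0.3 µM in mock cells, with 571 to 649 and 712 to 804 by 2-fold or more. For the step to 1.0 µM it gave 2380 to 3244 higher and 2634 to 3357 lower (1019 to 1302 and 138 to 250 by 2-fold), and for the difference between lines 1522 to 1668 higher and 1131 to 1244 lower (391 to 423 and 374 to 416 by 2-fold). With genes of at least 5 CPM only, which leaves fewer genes tested, the 2-fold counts at 0.3 µM were 389 higher and 510 lower and in the dose step 552 and 76. With limma on log2(FPKM + 1), a scale that shrinks changes of low genes, they were 231 and 333 at 0.3 µM, 378 and 43 in the dose step and 264 and 154 for the difference between lines. Without the 1.0 µM groups, which is also the fit of only the groups compared, 2991 genes had a higher and 2882 a lower difference between lines; the cause was not tested. Fitted on the 6 libraries alone, 4487 of 12302 genes rose and 4595 fell at 0.3 µM, 558 and 727 by 2-fold. With the replicate block, 3522 genes rose and 3926 fell at 0.3 µM, 638 and 824 by 2-fold. The fit of the 6 libraries alone with the block gave 4664 and 4807. Beside the values given with the results, the block changed the call of 1 named gene, Col8a2 (adjusted p = 0.0509), and 1 more endothelial marker was called higher. The mock call of Col8a2, marginal in the main fit (adjusted p = 0.0484), was also lost without any 1 of the 6 libraries. It was lost too with RLE size factors, no low count filter, the 5 CPM filter, limma and the length trend removed. Of 269 named genes, 230 kept direction and side of the threshold under every one of the 18 alternatives in which they were tested, 36 lost their call under at least 1, among them 28 without 1 library, and 2 reversed. Atp6v0e went from -0.21 to 0.0785 with the length trend removed. Bach1, at -0.00, ranged from -0.0730 to 0.0552 without 1 library and changed sign under 15 alternatives, with values of 0.00402, 0.0062, 0.00765, 0.0143, 0.0155, 0.0167, 0.0228, 0.0231, 0.0234, 0.0245, 0.0294, 0.0352 and 0.0552. Depth limits genes near 1 CPM, about 20 fragments a library, whose changes rest on few fragments.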
